A study of Homo sapiens with 4 samples.

Results

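The nuclear-encoded respiratory chain made up 69 of the 6434 genes in the deposited gene table. Its members were chosen by symbol alone: NDUFA, NDUFB, NDUFC, NDUFS and NDUFV genes with a number, UQCR genes, SDHA to SDHD, COX4 to COX8 genes and ATP5 genes. The rule itself uses no measured value, but it was set with earlier results of these data known. Complex I had 33 members, complex II had 4, complex III had 8, complex IV had 12 and complex V had 10. Of 86 protein-coding RefSeq genes whose current symbol fits the rule, 17 are not in the gene table. They are 3 of 36 in complex I, 1 of 9 in III, 5 of 17 in IV and 8 of 20 in V. NDUFS8, NDUFV1, UQCRH and COX4I1 are among them, so the values below do not cover whole complexes other than II. NDUFA4 was kept apart, because its product is now placed in complex IV, and so was ATP5S, because its product is not counted as a subunit. The gene table lists 64 of the members (92.8%) with a single peak of N1-methyladenosine (m1A), beside 81.0% of all its genes. Among the 364 genes with a mean array intensity at or above the members' median, a comparison added with the data in view, it was 33 of 35 members (94.3%), beside 95.9% of the 364. In all, 5 members (NDUFB11, UQCRFS1, COX6B2, COX7A1 and ATP5S) are listed as having no m1A peak.

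The study estimated how much of each mRNA is m1A-methylated from what is left after its removal. The 2 supernatant samples held poly(A)-selected RNA of HepG2 cells, a human liver tumour line, after an antibody against m1A had removed methylated molecules. The 2 input samples held the same kind of RNA without that depletion, and both groups came from cells of the same line in the same medium. RNA was labelled with biotin and hybridised to Affymetrix arrays, so every value is a relative signal, and a loss shared by all transcripts would not be seen in it.

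The respiratory chain of the inner mitochondrial membrane passes electrons to oxygen and pumps protons as it does so. Complex I takes electrons from NADH and complex II takes them from succinate, which it oxidises as an enzyme of the citric acid cycle. Complex III passes them from ubiquinol to cytochrome c, complex IV passes them on to oxygen, and complex V, the ATP synthase, uses the proton gradient to make ATP. All complexes except complex II also hold subunits encoded in mitochondrial DNA, which are not members here. In m1A a methyl group sits on the base-pairing face of adenosine and blocks normal pairing.

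The gene table gives its intensities in columns named supernatant A, supernatant B, input A and input B, with no cell line, and the letters were not matched to the replicate numbers of the samples. Whether the replicates are separate cultures is not in the labels, so the p-values cover only the spread of these 4 samples, and that spread may be technical. Over the genes with a single peak, the median intensity was 222 in both supernatants and 216 in both inputs. Over the 69 members it was 1871 and 1816 in supernatants A and B and 1882 and 1952 in inputs A and B. Of 20 genes fixed as markers of a liver line, 2 are in the gene table. The marker FOXA1, a transcription factor gene, stood at 88.8 and 118 in supernatants A and B and at 85.0 and 128 in inputs A and B. Of 8 genes fixed as markers of other cells, 3 are in it, and the intermediate filament gene VIM stood at 6284 and 5928 in supernatants A and B and at 6569 and 5851 in inputs A and B. The liver markers measured here are too few to check the labelled line, and whether other cells contributed to the values below was not tested.

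No member of the respiratory chain passed the test between supernatant and input. At a Benjamini-Hochberg adjusted p under 0.05 in limma, 0 members were lower and 0 were higher in the supernatant, where 0.0% and 0.0155% of all genes were. At an unadjusted p under 0.05 the counts were again 0 and 0, beside 0.622% of all genes lower and 1.4% higher, and the smallest unadjusted p of a member was 0.264 (adjusted p = 1.00). The median log2 change, supernatant over input, was 0.00 over the members, with quartiles of -0.03 and 0.04. It was 0.04 over all genes and 0.01 over the 364 genes at or above the members' median intensity. Of the 69 members, 34 had a log2 change below 0 and 35 above it. That is 49.3% below 0, beside 32.1% of all genes. Of the 35 members among the 364, 16 (45.7%) were below 0, beside 42.3% of the 364. The change was smaller than 0.1 in either direction in 61 of the 69.

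The 95% interval of a member's log2 change reached 0.26 to either side at the median, unadjusted for the number of genes. Between the 2 inputs alone, members differed by 0.12 on the log2 scale at the median, and between the 2 supernatants by 0.07, whereas the median size of the change between groups was 0.04. In 57 of 69 members (82.6%) the inputs differed from each other by more than the groups did, beside 77.1% of all genes. Among the 364 it was 29 of 35 members (82.9%), beside 81.6%. The change between groups is a difference of 2-column means, which varies less than a difference of single columns even without any effect. These sizes are therefore not like for like.

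**Figure D1:**
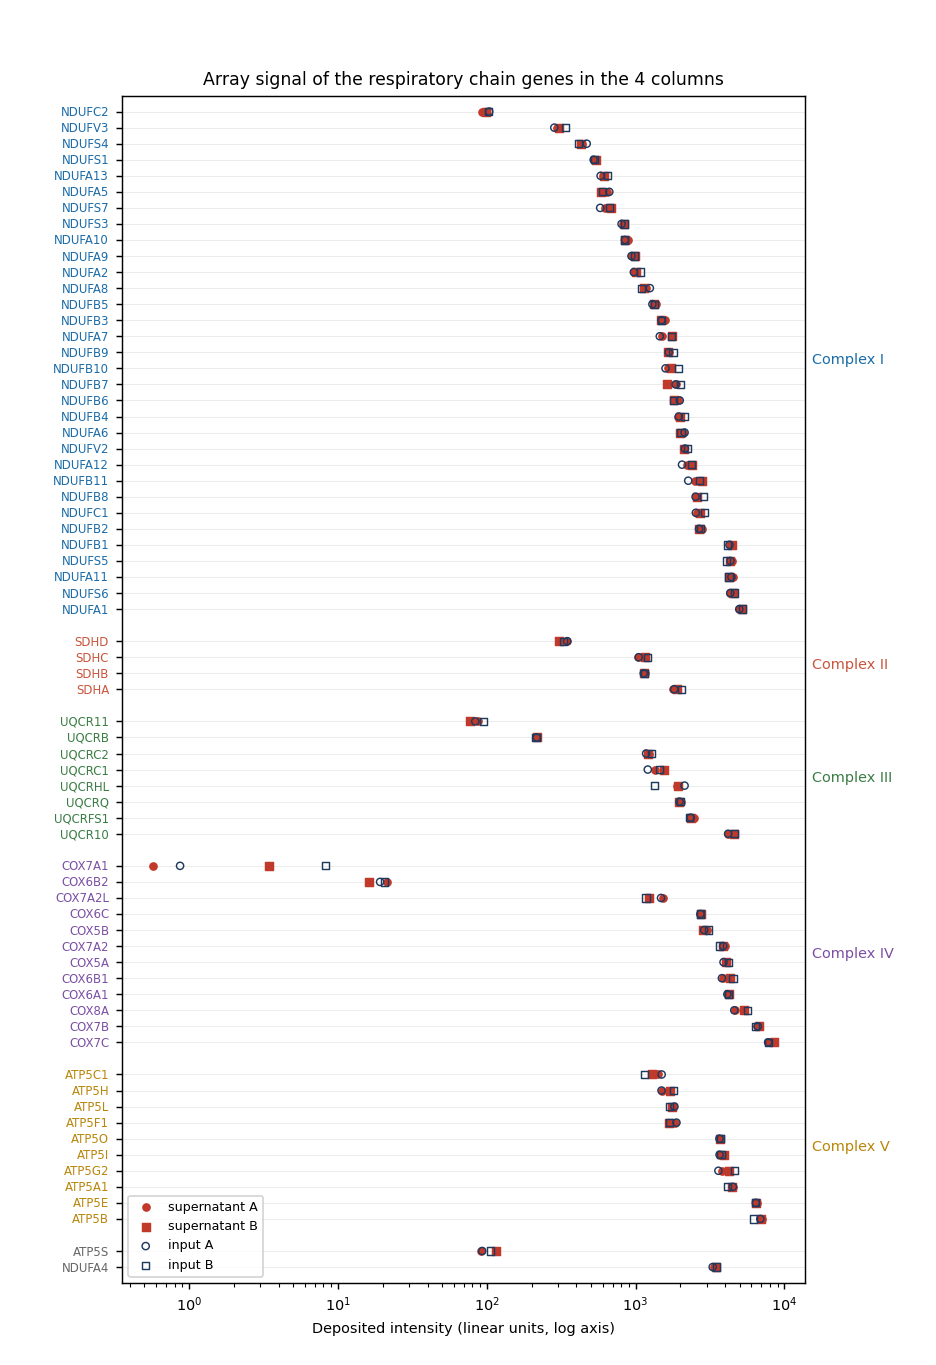
Deposited intensity (log axis, arbitrary units) of each member in both supernatants and both inputs, with members grouped by complex and 1 member of complex I not drawn. For most members the 4 points lie on top of each other; COX7A1, between 0.57 and 8.28, is the member whose points spread widely.

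The 5 complexes lay close together. The median log2 change was -0.01 in complex I, -0.05 in complex II, 0.01 in complex III, 0.00 in complex IV and 0.01 in complex V. The members below 0 were 19 of 33 in complex I, 3 of 4 in complex II, 3 of 8 in complex III, 6 of 12 in complex IV and 3 of 10 in complex V. Differences between complexes were not tested, since genes of a complex are not replicates of a condition. No complex had a member that passed. Centring the columns on the genes without a peak put all 5 medians below 0, between -0.0526 in complex V and -0.114 in complex II. That centring also put the median of all genes below 0, at -0.0259.

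In complex I, NDUFB7, an accessory subunit on the intermembrane space side, had the lowest change. Its intensity was 1871 and 1633 in supernatants A and B, against 1859 and 2007 in inputs A and B. The groups overlapped, because supernatant A lay above input A, and the log2 change was -0.14 ± 0.11 (SE), with a 95% interval of -0.44 to 0.16 (limma, adjusted p = 1.00). NDUFC2, another accessory subunit, had 92.5 and 98.5 in supernatants A and B, against 104 and 103 in inputs A and B. Both supernatants lay below both inputs, with a log2 change of -0.11 ± 0.09 that did not pass. NDUFB11, a subunit of the membrane arm listed without a peak, was at the other end of the complex at 0.10 ± 0.13. It had 2523 and 2787 in supernatants A and B, against 2259 and 2695 in inputs A and B, and the groups overlapped.

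The core of complex I in its peripheral arm carries the electrons from NADH towards ubiquinone. NDUFS1, the largest iron-sulfur subunit of the arm, had 524 and 540 in supernatants A and B, against 523 and 533 in inputs A and B. The supernatants and inputs overlapped, and the log2 change was 0.01. NDUFS3, another core subunit of the arm, had 823 and 838 in supernatants A and B, against 805 and 841 in inputs A and B. NDUFS7, which holds the last iron-sulfur cluster before ubiquinone, had 624 and 682 in supernatants A and B, against 579 and 669 in inputs A and B. NDUFV2, an iron-sulfur subunit of the NADH-oxidising module, was the exception in overlap. Its 2116 and 2102 in supernatants A and B both lay below 2145 and 2236 in inputs A and B, at a log2 change of -0.05 ± 0.09 that did not pass.

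Among the other named accessory subunits, NDUFA1 had 4937 and 5199 in supernatants A and B, against 4978 and 5218 in inputs A and B. NDUFA12 had 2230 and 2391 in supernatants A and B, against 2052 and 2375 in inputs A and B. NDUFS5, which sits on the intermembrane space side, had 4440 and 4307 in supernatants A and B, against 4342 and 4066 in inputs A and B. In NDUFA1 and NDUFA12 the groups overlapped, and in NDUFS5 supernatant B lay below input A. Within complex I the median log2 change was -0.01 over 11 NDUFA genes, -0.01 over 11 NDUFB genes, -0.08 over 2 NDUFC genes, 0.01 over 7 NDUFS genes and -0.05 over 2 NDUFV genes.

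All 4 genes of complex II were measured, and it is the complex without mitochondrially encoded subunits. SDHA, the flavoprotein that oxidises succinate, had 1796 and 1909 in supernatants A and B, against 1819 and 2046 in inputs A and B. SDHC, one of the membrane anchors, had 1041 and 1152 in supernatants A and B, against 1051 and 1210 in inputs A and B. SDHD, the other anchor, had 346 and 305 in supernatants A and B, against 347 and 327 in inputs A and B. In these 3 genes each supernatant lay below the input of its own letter, but the groups overlapped. The log2 changes were -0.06 ± 0.11, -0.04 ± 0.12 and -0.05 ± 0.11 (SE) for SDHA, SDHC and SDHD, and none passed. SDHB, the iron-sulfur subunit, went the other way by a small margin. It had 1150 and 1147 in supernatants A and B, both above 1134 and 1141 in inputs A and B, at a log2 change of 0.01 ± 0.08.

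Complex III held the member with the highest change of all. UQCRHL had 1895 and 1919 in supernatants A and B, against 2135 and 1343 in inputs A and B, so that the inputs enclosed the supernatants, and its log2 change was 0.17 ± 0.24. It is an intronless near copy of UQCRH, the hinge protein gene, so its probes may read both transcripts and its value is uncertain. UQCRC1, a core protein, had 1355 and 1547 in supernatants A and B, against 1208 and 1448 in inputs A and B (log2 change 0.13 ± 0.14). UQCRC2, the other core protein, had 1231 and 1210 in supernatants A and B, against 1178 and 1283 in inputs A and B. In UQCRC1 each supernatant exceeded the input of its own letter, although the groups overlapped, and in UQCRC2 the pairs differed in sign.

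UQCRFS1, the Rieske iron-sulfur protein and the member of the complex listed without a peak, had 2451 and 2346 in supernatants A and B, against 2345 and 2291 in inputs A and B. Both supernatants lay above both inputs, with a log2 change of 0.05 ± 0.09. The small subunit UQCR11 had the lowest change of complex III at -0.13 ± 0.12, with 87.2 and 76.8 in supernatants A and B, against 83.8 and 95.5 in inputs A and B. UQCR10, another small subunit, had 4162 and 4561 in supernatants A and B, against 4188 and 4631 in inputs A and B. In both genes the groups overlapped, and no gene of complex III passed.

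Complex IV includes families in which several genes encode versions of the same subunit. COX6B1 had 3880 and 4286 in supernatants A and B, against 3804 and 4509 in inputs A and B. Its testis version COX6B2, listed without a peak, had 21.3 and 16.1 in supernatants A and B, against 19.2 and 20.5 in inputs A and B. Neither separated the groups, and the log2 changes were -0.02 ± 0.13 and -0.10 ± 0.16. COX7A2 had 4020 and 3858 in supernatants A and B, against 3881 and 3649 in inputs A and B (0.07 ± 0.09). COX7A1, its heart and muscle version, also without a peak, had 0.57 and 3.46 in supernatants A and B, against 0.87 and 8.28 in inputs A and B. The lettered columns differed far more than the groups did in COX7A1, and its log2 change of -0.93 ± 1.39 had a 95% interval of -4.63 to 2.76, too wide to show any difference. COX7A2L, whose product is known for joining complexes III and IV into supercomplexes, had 1518 and 1223 in supernatants A and B, against 1483 and 1176 in inputs A and B.

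The other named subunits of complex IV showed no separation between the groups either. COX5B had 3024 and 2857 in supernatants A and B, against 2891 and 3089 in inputs A and B. COX6A1 had 4196 and 4250 in supernatants A and B, against 4138 and 4208 in inputs A and B. COX7B had 6574 and 6707 in supernatants A and B, against 6622 and 6357 in inputs A and B. In all 3 genes at least 1 supernatant value lay between or below the inputs. COX7C had 7710 and 8502 in supernatants A and B, against 7778 and 7863 in inputs A and B. COX8A had 4673 and 5323 in supernatants A and B, against 4606 and 5637 in inputs A and B. For both, supernatant B was the higher supernatant and input B the higher input. NDUFA4 had 3354 and 3452 in supernatants A and B, against 3298 and 3482 in inputs A and B, and the complex's median was 0.00 with or without it.

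In complex V, ATP5B, the catalytic beta subunit, had the highest change of the complex. It had 7062 and 6960 in supernatants A and B, both above 6891 and 6181 in inputs A and B, at a log2 change of 0.10 ± 0.10 that did not pass. ATP5A1, the alpha subunit, had 4482 and 4466 in supernatants A and B, against 4507 and 4124 in inputs A and B. ATP5C1, the gamma subunit that turns within the head, had 1424 and 1299 in supernatants A and B, against 1497 and 1146 in inputs A and B. For both ATP5A1 and ATP5C1, the supernatants lay between the inputs. ATP5G2, one of several genes for the same ring subunit c, had 3814 and 4254 in supernatants A and B, against 3602 and 4597 in inputs A and B. ATP5H, a subunit of the stalk that holds the head still, had the lowest change of the complex at -0.03 ± 0.14, with 1511 and 1709 in supernatants A and B, against 1494 and 1797 in inputs A and B. ATP5F1, also of that stalk, had 1853 and 1683 in supernatants A and B, against 1882 and 1696 in inputs A and B. Each of these 3 genes had overlapping groups. ATP5S, the non-subunit without a peak, had 91.7 and 116 in supernatants A and B, against 93.2 and 105 in inputs A and B (0.06 ± 0.15).

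Both supernatants lay below both inputs in 2 of the 69 members, NDUFV2 and NDUFC2, which is 2.9% beside 6.37% of all genes. Both lay above both inputs in 6, which is 8.7% beside 16.6% of all genes. Those 6 were ATP5B and SDHB, named above, UQCRFS1, and NDUFB1, UQCRB and ATP5E, which were named after their values were seen. They come from complexes I, II, III and V. Among the 364 genes at or above the members' median intensity, both supernatants lay below both inputs in 1 of 35 members (2.86%), beside 5.77%, and above them in 4 (11.4%), beside 10.2%. These shares were not tested and depend on the scaling: centring on the genes without a peak put both supernatants below both inputs in 18 of 69 members (26.1%), beside 17.2% of all genes, and above them in 0, beside 6.71%.

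The lettered pairs gave different counts. In pair A the ratio of supernatant to input was below 1 in 24 of 69 members (34.8%), equal to the 34.8% of all genes. In pair B it was below 1 in 38 members (55.1%), beside 39.4% of all genes. Among the 364, pair B was below 1 in 20 of 35 members (57.1%), beside 48.9%, and pair A in 12 (34.3%), beside 37.9%. Complex I gave 10 of 33 in pair A and 20 of 33 in pair B, and complex II gave 3 of 4 in each. Complex III gave 2 and 4 of 8, complex IV 4 and 6 of 12, and complex V 4 of 10 in both. The ratio was below 1 in both pairs in 13 members (18.8%, beside 14.4% of all genes) and above 1 in both in 20 (29.0%, beside 40.3%). It was above 1 in A and below 1 in B in 25 members, and the reverse in 11. Across members, which are not independent replicates, the log2 ratios of the pairs had a Spearman correlation of -0.14. Their Pearson correlation of 0.47 became -0.36 without COX7A1. Over all genes the Spearman correlation was 0.06 and the Pearson correlation 0.15. Each pair has its own supernatant and input. In 52 of 69 members (75.4%, beside 73.7% of all genes) supernatant and input differed in the same direction between the letters, and among the 364 in 26 of 35 (74.3%, beside 74.2%).

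**Figure D2:**
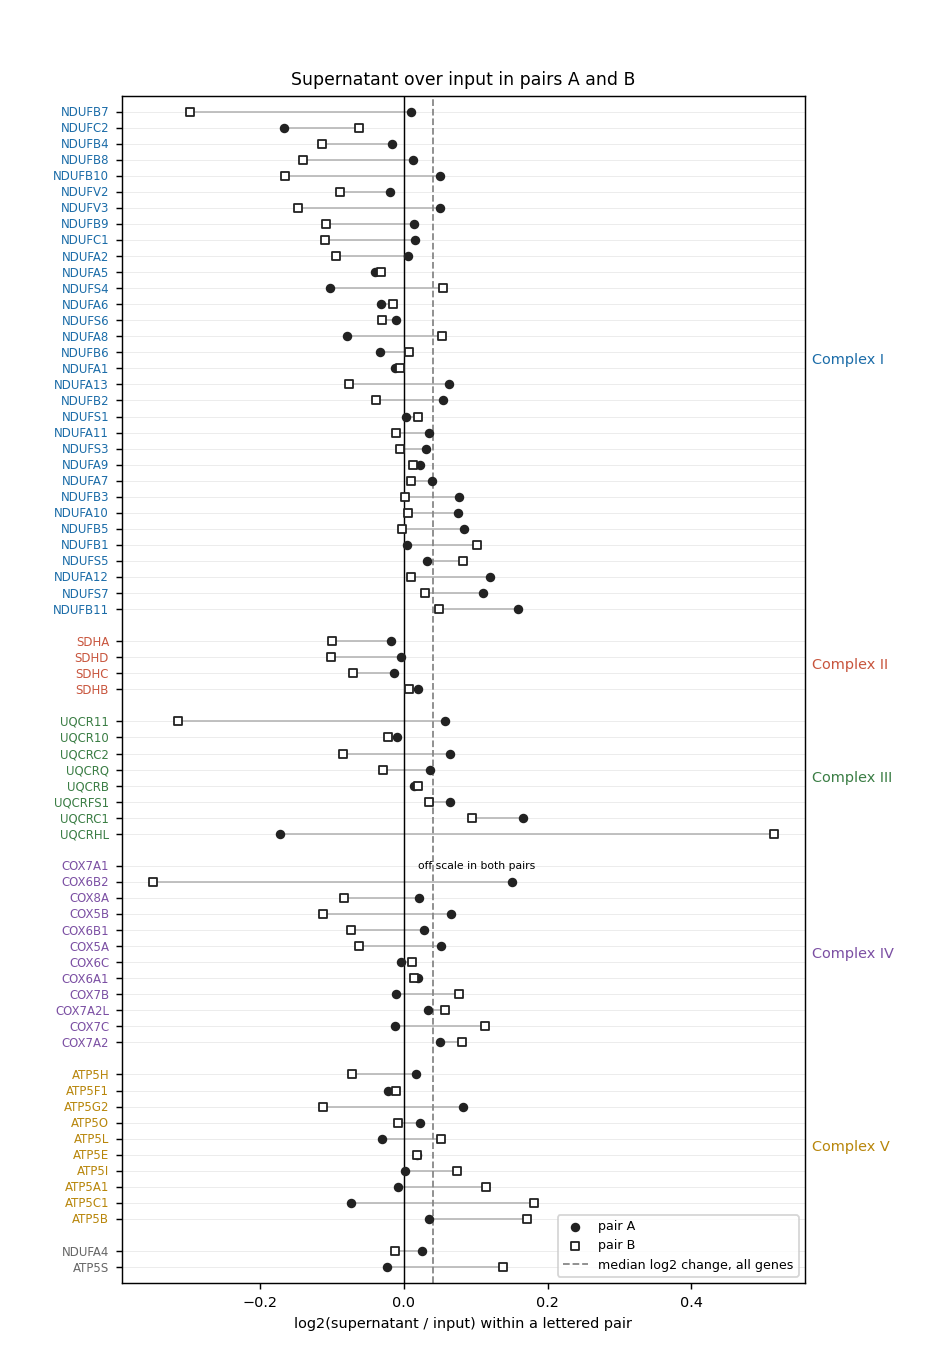
Log2 ratio of supernatant to input (x axis) in pair A (filled circles) and pair B (open squares), with a row for each member, grouped by complex; COX7A1 is off the scale, 1 member of complex I is not drawn, and the dashed line is the median log2 change of all genes. Both marks lie left of 0 in 13 of all 69 members, and in 25 pair A lies right of 0 and pair B left of it.

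The gene table also holds the authors' methylated fraction for the 64 members with a peak. The median was 0.225 over the members and 0.21 over all genes with a single peak. By complex the medians were 0.23 in I, 0.25 in II, 0.22 in III, 0.22 in IV and 0.22 in V. In the authors' deposited table the fraction ranged over 0.19 to 0.30 in complex I, 0.22 to 0.26 in II, 0.10 to 0.29 in III, 0.19 to 0.24 in IV and 0.17 to 0.24 in V. It was at least 0.25 in 15 of 64 members (23.4%), beside 17.4% of genes with a single peak. Of these 15, 11 were in complex I, led by NDUFB7 at 0.30 and NDUFC2 at 0.28, 3 were SDHA, SDHC and SDHD, and 1 was UQCR11 at 0.29. Complexes IV and V had none, but both reached 0.24. The deposited fractions are rounded to hundredths, and several of the 15, such as NDUFA5, SDHC and SDHD, stood at 0.25. The count by complex therefore depends on that rounding and on the bound. The same calculation within each pair gave 0.221 in pair A and 0.370 in pair B for NDUFB7. It gave 0.194 and 0.377 for UQCR11, and 0.235 and 0.278 for SDHA. Of the 15, NDUFC2 (0.310 and 0.259) and NDUFA5 (0.247 and 0.243) were higher in pair A, and the others in pair B. At the low end of the authors' deposited table, UQCRHL was at 0.10, UQCRC1 at 0.15 and ATP5B at 0.17. For UQCRHL the same calculation gave 0.313 from pair A and -0.106 from pair B.

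**Figure D3:**
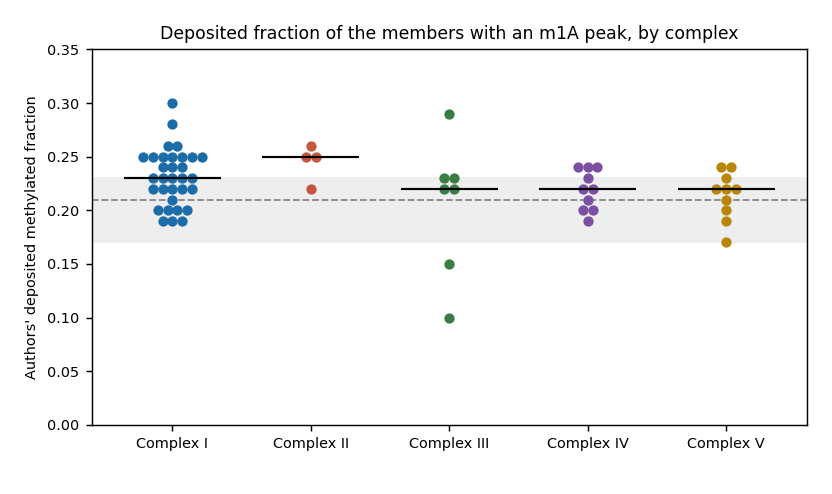
The authors' deposited methylated fraction (y axis) of the members of complexes I to V with a peak, a point each, with the median of each complex as a black bar; the dashed line and the grey band are the median and quartiles of all genes with a single peak. Most members lie near 0.225, and UQCRHL is lowest at 0.10. The 15 at or above 0.25 after rounding are in complexes I, II and III.

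These fractions follow the changes given above through a constant. Recomputed from the intensities, each deposited ratio was the mean of the pair ratios divided by 1.29, the mean ratio of the genes without a peak, and the fraction was 1 minus that. The division lowers every log2 ratio by 0.37. Without it the members' median fraction was -0.00187, and with the median ratio of the genes without a peak, 1.05, as divisor it was 0.05. The deposited ratio of a member therefore lies below its measured change by construction, and whether it lies outside the 95% interval follows from the width of that interval.

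**Figure D4:**
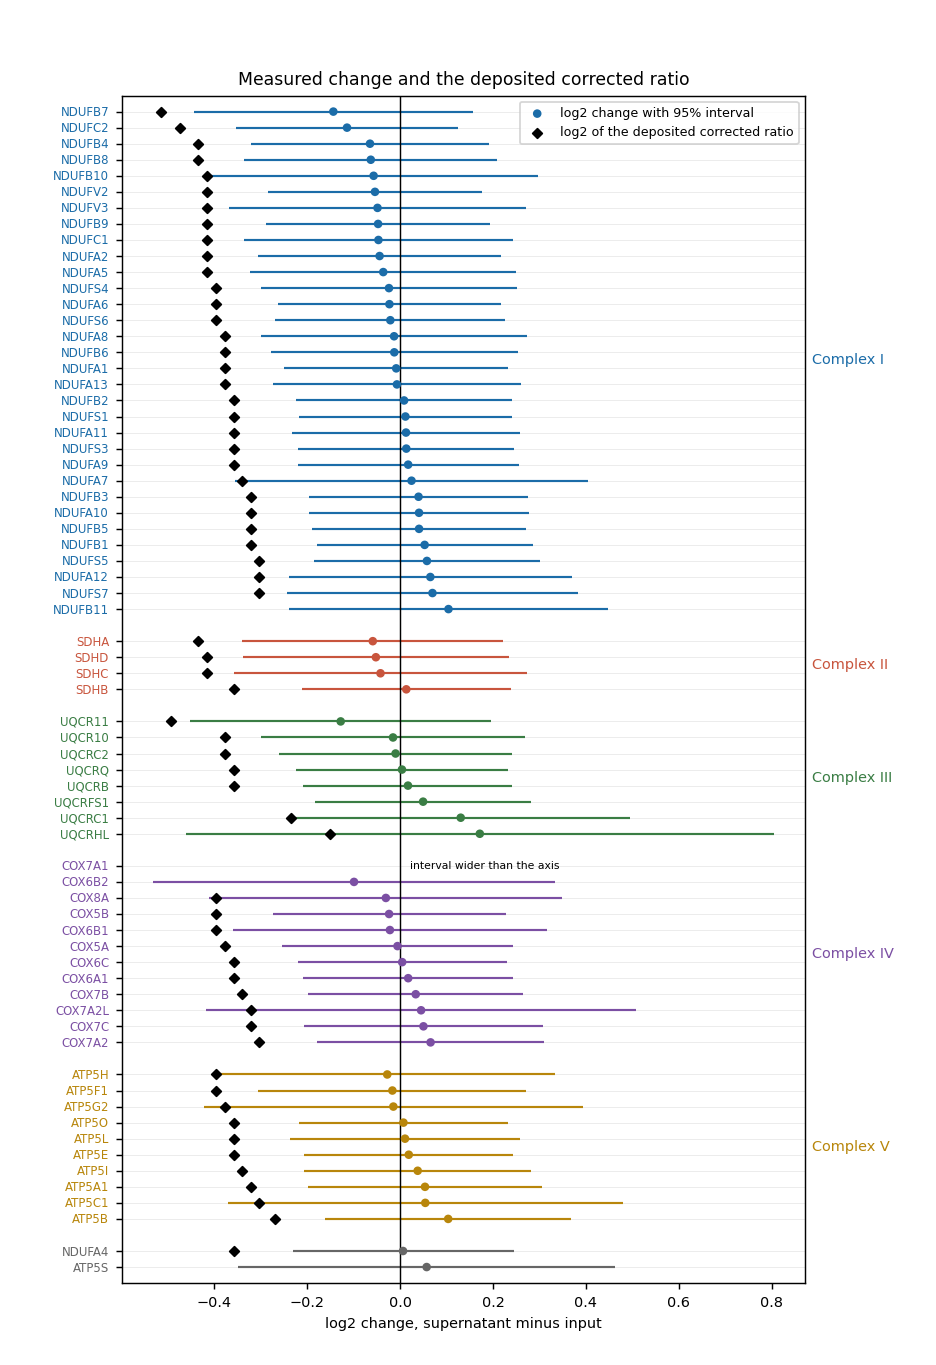
Log2 change of each member, supernatant over input, with its 95% interval from limma, beside the log2 of the authors' deposited ratio (black diamonds), with 1 member of complex I not drawn. All intervals hold 0, and the diamonds lie left of the measured changes because of the divisor of 1.29; COX7A1 runs off the axis.

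Assembly factors and subunits with other names also had none that passed. Of 75 listed symbols of factors that build the complexes, 47 were measured, 0 passed in either direction, and 20 were below and 27 above 0, with a median log2 change of 0.01 and a range of -0.18 to 0.17. The medians were 0.00 over 13 factors of complex I, 0.04 over 3 of II, 0.06 over 4 of III, 0.00 over 24 of IV and -0.01 over 3 of V. The lowest were a pair of complex IV factors. COX19, a small protein of the intermembrane space, had 72.3 and 64.7 in supernatants A and B, against 76.5 and 78.4 in inputs A and B, at a log2 change of -0.18 ± 0.10. COX16 had 773 and 716 in supernatants A and B, against 793 and 886 in inputs A and B, at -0.17 ± 0.11. In both genes both supernatants lay below both inputs, and neither passed. The complex III factor UQCC was highest at 0.17 ± 0.09, with both supernatants above both inputs. Of the 47 factors, both supernatants lay below both inputs in 4, beside 6.37% of all genes. They lay above both in 5, beside 16.6% of all genes.

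Of 8 listed subunits and carriers outside the symbol rule, 6 were measured and 0 passed, with a median log2 change of 0.06. CYC1, cytochrome c1 of complex III, had 3328 and 2851 in supernatants A and B, against 3252 and 3489 in inputs A and B (-0.13 ± 0.12). CYCS, the cytochrome c that complex III reduces, had 1879 and 1871 in supernatants A and B, both above 1835 and 1715 in inputs A and B (0.08 ± 0.09). The authors' deposited fractions were 0.29 for CYC1 and 0.18 for CYCS.

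Sequence shared by the members was looked for in their promoters, since NRF1, GABP of the ETS family and YY1 are known as regulators of respiratory chain genes. The arrays measure transcripts and say nothing of promoters, so what follows is a description. RefSeq windows from 250 bases before to 50 after the gene start (GRCh38.p14) were found for 57 of 69 members. Matches were sought on both strands, and no match of one motif overlapped a match of another in the members. The NRF1 motif, GCGC followed by any base and TGCGC, was in 14 of 57 members (24.6%). That stands beside 692 of 4926 genes of the gene table (14%) and 9.67% of protein-coding genes with a window. The 4926 are genes listed under a current symbol, whereas members were also matched through older symbols, so the sets were built differently. The ETS motif CCGGAAG was in 17 (29.8%), beside 24.3% and 16.5%, and the YY1 motif AAGATGGC in 10 (17.5%), beside 6.86% and 4.66%. At least 1 of these motifs was in 34 members (59.6%), beside 38.9% and 26.9%. The NRF1 motif was in 5 of 28 windows of complex I, 2 of 3 of complex II, 4 of 6 of complex III, 0 of 10 of complex IV and 3 of 9 of complex V.

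The 180 bases just before the gene start are shown for 3 members with several motif matches, which stand in capitals. These members were picked by their number of matches, and the deposited fraction played no part. NDUFB4, an accessory subunit of complex I (deposited fraction 0.26), lies at chr3:120596156-120596335 on the plus strand, SDHA at chr5:218140-218319 on the plus strand and UQCR11 at chr19:1605463-1605642 on the minus strand, all of GRCh38.p14 and written 5′ to 3′.
NDUFB4: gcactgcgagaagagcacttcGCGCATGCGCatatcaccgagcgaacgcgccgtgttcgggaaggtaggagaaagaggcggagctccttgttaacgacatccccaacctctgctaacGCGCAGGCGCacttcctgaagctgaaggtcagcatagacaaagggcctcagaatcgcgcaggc
SDHA: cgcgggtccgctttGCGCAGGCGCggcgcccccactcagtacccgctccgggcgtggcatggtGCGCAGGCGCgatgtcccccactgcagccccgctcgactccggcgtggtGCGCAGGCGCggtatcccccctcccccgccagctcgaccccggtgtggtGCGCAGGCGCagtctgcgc
UQCR11: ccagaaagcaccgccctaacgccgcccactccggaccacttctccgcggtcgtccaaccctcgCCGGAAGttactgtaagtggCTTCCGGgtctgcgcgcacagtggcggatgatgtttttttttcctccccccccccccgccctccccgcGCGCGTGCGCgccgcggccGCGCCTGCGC
SDHA held 4 matches of the NRF1 motif, all with the same letters and each starting 49 bases after the one before. NDUFB4 held 2 within the stretch and another across the gene start, outside it. UQCR11 held 2 ETS matches on opposite strands, and 2 NRF1 matches beside the start.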

How the data were processed

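Members and gene lists were chosen with earlier results of these data known. The labels' protocols give 2 supernatant and 2 input arrays, and the submitters' processing notes name RMA. The gene table holds deposited intensities on a linear scale, per the file headers, and the steps behind them are not given in the sources used here. Its deposited ratio and deposited fraction columns are the authors' own; recomputed ratios came within 0.00518 of the deposited ones in genes with a peak. A second table, of deposited log2 values per probe set, was not used because no table used here pairs its probe sets with genes.

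Log2 intensities of all 6434 genes were fitted with limma 3.58.1 in R 4.3.3 (lmFit, eBayes, unpaired; SE and intervals from the moderated fit), Benjamini-Hochberg adjusted over all genes at 0.05. The fit was tested on simulated data, with changes set in genes of above-median signal. It recovered 16 of 67 genes (23.9%) at a log2 change of -0.5, 62 of 67 (92.5%) at -1 and 66 of 66 at -2. It also made 7 false calls. Most changes of -0.5 were thus missed there, and may be missed in these data. The simulated columns varied independently, whereas same-letter columns correlate in the data. More genes were changed in the simulation than passed in the data. Its rates may therefore not hold here. An exact test of 2 against 2 cannot go below a two-sided p of 0.333. Symbols were matched to RefSeq (GRCh38.p14): 57 of the members' symbols are current and 12 are older. Named members are, per complex, those with the extremes of change, deposited fraction and signal, plus complex II, members without a peak, subunit families, the redox or catalytic core and non-subunits. Lists and the 3 promoters were written separately: factors named are the ends of the list, and the promoters were chosen after their motifs were seen. Values of 1 member and 1 marker gene are not reported here, though counts and medians include them. Signals of different genes were not compared. Array number limits the precision. Alternatives covered the replicate block, prior, offset, normalization, recentring, level filter, left-out columns and divisors.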

Additional observations from a re-analysis of the deposited data

How the results depend on the processing

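No member passed under any of the 10 alternatives to the test, in either direction. The alternatives were the replicate block, a trended prior, log2(intensity + 32), quantile normalization, recentring on the genes without a peak, the brighter genes alone, and each column left out. With the replicate block, in which columns of the same letter form a pair, the members' median log2 change stayed at 0.00373 and 0 members passed. In that fit 1 member, lower in the supernatant, had an unadjusted p under 0.05, and the share over all genes is not given here. COX7A1, with intensities of only 0.57 to 8.28, had a log2 change of -0.934 ± 0.177 in it (limma, adjusted p = 0.748). The authors' ratios pair the columns by letter, but no label says what a letter marks. Deviations of same-letter columns from their group means correlated at 0.451 across all genes. Fits without 1 column assume that the lone column varies like the other group. Among 38 named members, 33 changed sign under at least 1 alternative, so the signs given for single members depend on the processing. Recentring moved the median change to -0.0632 for all members, and to -0.0756, -0.114, -0.0568, -0.0678 and -0.0526 for complexes I to V. It moved the median of all genes to -0.0259. Quantile normalization moved the members' median to -0.0167, beside 0.000384 for all genes. Leaving out each column in turn gave medians of -0.0166 (without input A) to 0.0248 (without input B) for all members, -0.0353 to 0.0253 for complex I, -0.0771 to 0.0218 for complex II and 0.0163 to 0.0417 for complex V. Both supernatants lay below both inputs in 5 members (7.25%) after quantile normalization, beside 12.1% of all genes, and in 18 (26.1%) after recentring, beside 17.2%. They lay above both in 1 (1.45%, beside 9.11%) and in 0 (beside 6.71%). The split of 2 lower and 6 higher thus turns round, and so does the order against all genes for the lower count after recentring. The members' median fraction was -0.00187 without a divisor, 0.0486 with the median ratio of the genes without a peak and 0.047 when only bright genes without a peak set the mean. That follows from the divisor's size. Added after the data were seen, leaving out COX7A1 gave a median of 0.00397, and leaving out COX6B2 and COX7A1 gave 0.0107 for complex IV.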
